A study of Homo sapiens with 9 samples.

Results

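Cholesterol and fatty acids are built from the same cytosolic pool of acetyl-CoA, and 35 genes of these routes were followed in A549 cells, a human lung adenocarcinoma cell line. The genes were chosen by name, as the enzymes of the mevalonate, sterol and fatty acid pathways with the regulators and sterol transporters that work with them. Each was found in the deposited tables under its symbol, and all 35 were among the 21048 genes tested, of 31080 reference genes and joined loci. CYP51A1 shares its row with LRRD1 and TM7SF2 with VPS51, so the values of those rows cannot be split between the genes. The cells received scrambled siRNA, siCyclin K#1 or siCyclin K#2 at 50 nM for 48 h, with 3 libraries per group and no other treatment. Both siCyclin K reagents target CCNK, the gene of Cyclin K, which partners the kinases CDK12 and CDK13 that phosphorylate RNA polymerase II. All 9 libraries come from 1 cell line under transient knockdown, and the labels do not say whether the 3 libraries of a group were separate cultures, so the p-values measure only the spread between these libraries. RNA-seq levels are given in FPKM, fragments scaled to transcript length and to the mapped fragments of the library, which is a level per length.

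The central regulators of these routes are the SREBP transcription factors, made from SREBF1 and SREBF2. They are held in the endoplasmic reticulum by SCAP and the INSIG proteins while sterols are plentiful, and are carried to the Golgi, cut and released to the nucleus when sterols run low, where they switch on sterol and fatty acid enzymes. The LXR receptors answer to oxidised sterols and drive export and uptake control genes such as ABCA1 and MYLIP, and also SREBF1. The steps run from acetyl-CoA to farnesyl diphosphate, from squalene to cholesterol, and, on a separate branch, from acetyl-CoA to long-chain fatty acids.

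CCNK fell from 7.02 ± 0.107 FPKM (SD, n = 3) under scrambled siRNA to 0.809 ± 0.0857 under siCyclin K#1 and 0.844 ± 0.0661 under siCyclin K#2, or 11.5% and 12.03% of the scrambled mean. Library depth, worked out from the steps between low FPKM values, was 31333748 to 33767960 reads. Of the epithelial markers, KRT8 had mean levels of 55.3, 94.9 and 97.4 FPKM and KRT18 of 83.2, 74.1 and 90.2 FPKM in the scrambled, siCyclin K#1 and siCyclin K#2 groups, CDH1 had 1.64, 3.88 and 1.71 FPKM, and EPCAM and KRT19 were at or near 0. The 6 markers of other cells summed to 1.83 to 2.26 FPKM under scrambled siRNA, 13.8 to 14.8 under siCyclin K#1 and 3.12 to 3.33 under siCyclin K#2. Nearly all of that sum was COL1A1, with means of 2.03, 14.0 and 3.19 FPKM, while PTPRC, PECAM1, CDH5, COL3A1 and DCN stayed near 0 in every group. The part of these marker differences in the results was not tested, and in bulk RNA fewer cells that make a transcript and less of it per cell cannot be told apart.

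Over both siRNAs, 10 of the 35 genes were lower and 4 were higher than under scrambled siRNA at an adjusted p under 0.05 (limma on log2(FPKM + 0.1), adjusted over all genes tested). This fit took the 6 siCyclin K libraries as 1 group, so any difference between the 2 reagents is part of its spread. Its p-values treat libraries, not reagents, as the units. The 10 are 28.6% of the 35, against 11.5% of all genes called lower, and the 4 are 11.4%, against 17.0% of all genes called higher. The lower genes were HMGCS1, IDI1, FDFT1, MSMO1, STARD4, ABCA1, FASN, FADS1, ELOVL6 and LPIN1, which reach into both routes and sterol transport. The higher genes were PMVK, INSIG1, SREBF1 and SCAP, of which 3 belong to the SREBP system. The median log2 fold change was -0.11 for the 35 and 0.06 for all genes tested. All 35 were also among the 11243 genes with a mean of 1 FPKM or more, where calls were more common. MYLIP passed that filter only through siCyclin K#1, where its mean was 1.92 FPKM, beside 0.644 under scrambled siRNA and 0.597 under siCyclin K#2. In a fit to the 11243 genes, 11 of the 35 were lower and 5 higher, against 18.9% and 27.3% of the 11243. When the libraries were rescaled by median ratio, which took the all-gene median to -0.01, 15 of the 35 were lower and 2 were higher, against 14.1% and 14.6% of all genes. With a stricter threshold, a fold change over 3 plus a p under 0.01 before adjustment, only MSMO1 and STARD4 passed, 2 of 35 (5.71%) against 2.29% of all genes.

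The siRNAs called a like number of the 35 genes, with a different split between higher and lower. Under siCyclin K#1, 13 were higher (37.1%, against 26.8% of all genes) and 11 lower (31.4%, against 18.1%). Under siCyclin K#2, 4 were higher (11.4%, against 19.8%) and 19 lower (54.3%, against 15.2%). In the fit to genes with a mean of 1 FPKM or more, siCyclin K#1 gave 14 higher and 11 lower of the 35. The 14 include MYLIP, which passed that filter only through siCyclin K#1. The counts of 14 and 11 lie near the shares of all such genes, 37.8% and 28.9%. For siCyclin K#2 that fit gave 4 higher and 19 lower, against 32.9% and 24.3%. The median log2 fold change of the 35 was 0.00 under siCyclin K#1 and -0.25 under siCyclin K#2, beside 0.10 and 0.01 for all genes. Under median-ratio rescaling the all-gene median under siCyclin K#1 moved from 0.10 to 0.00, and the split of the 35 became 11 higher and 15 lower under siCyclin K#1 (22.2% and 22.1% of all genes), and 3 higher and 19 lower under siCyclin K#2 (17.8% and 17.2%). The stricter threshold of fold change over 3 was passed by IDI1 and MSMO1 under siCyclin K#1 (5.71%, against 4.67% of all genes) and by STARD4 under siCyclin K#2 (2.86%, against 1.94%). Both comparisons use the same 3 scrambled libraries.

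**Figure D1:**
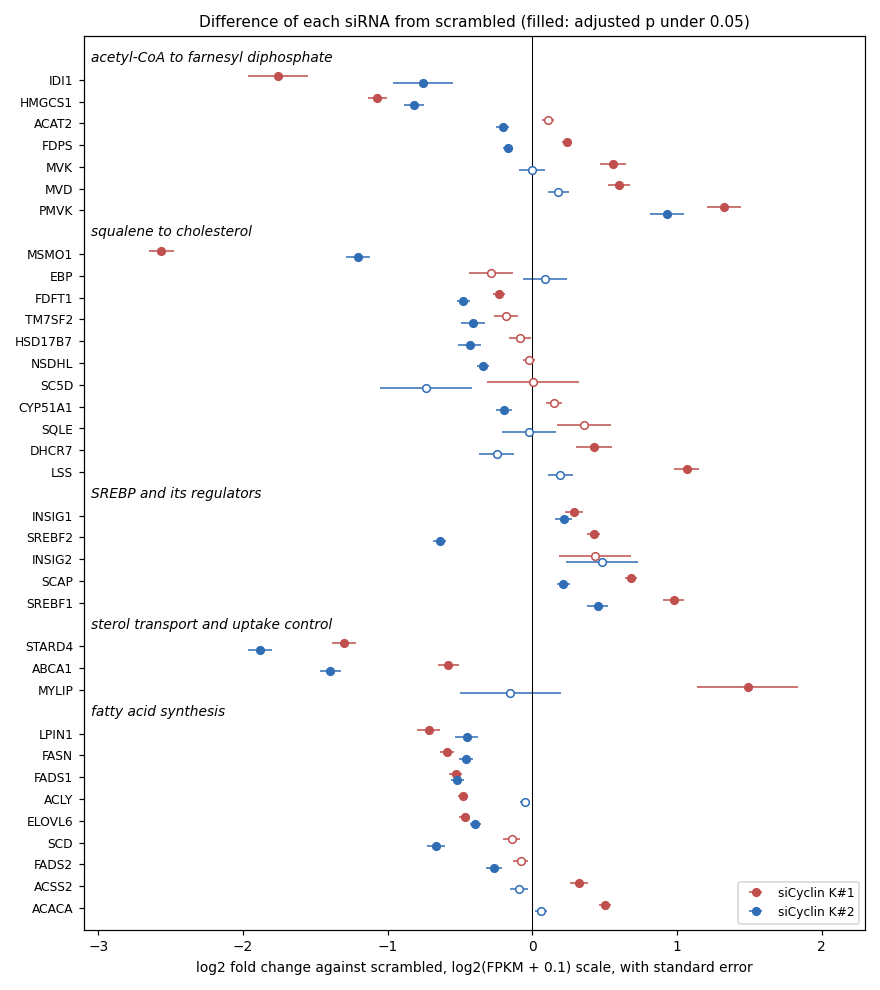
Log2 fold change of each of the 35 genes against scrambled siRNA (x axis, log2(FPKM + 0.1) scale) for siCyclin K#1 (red) and siCyclin K#2 (blue), grouped by role, with the standard error as bars and filled points at an adjusted p under 0.05. MSMO1 under siCyclin K#1 sits farthest to the left at -2.56 ± 0.085, STARD4 under siCyclin K#2 is at -1.89 ± 0.083, and SREBF2 and FDPS have filled points on opposite sides of 0.

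Comparing all 6 siCyclin K libraries with the 3 scrambled ones library by library, 10 genes lay below with no overlap (28.6%, against 13.7% of all genes) and 5 lay above (14.3%, against 18.9%). Those below were the 10 called lower, and those above were the 4 called higher and MVD. For each of these 15 genes the exact two-sided permutation test of 6 against 3 libraries gave p = 0.0238, the smallest it can give here. Groups with no overlap always give that value, so the test adds nothing to the count, and 3 against 3 libraries cannot go below 0.1.

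Promoters were read from RefSeq (GRCh38.p14, 250 bases before to 50 after the start) for 31 of the 35 genes, to show the letters that known activators of this pathway bind. The sterol regulatory element searched, TCACNCCAC, was in 1 of the 31, SREBF2, and in 1.13% of 35116 promoters of all genes. CCAAT, the box of NF-Y, a factor known to work beside SREBPs, was in 19 of 31 promoters, against 34.61% of all. GGGCGG, the Sp1 box, was in 29 of 31 (44.95% of all), and the E-box CACGTG was in 5 of 31 (7.26% of all). The 35116 promoters were not limited to genes expressed in these cells, as the 31 are. The shares are thus not matched for expression. Both strands were searched, and each motif was counted on its own even where it shared letters with another. A match is only a description of the letters, the windows follow RefSeq's starts, and other spellings of the element were not searched. The stretch of SREBF2 that holds the element, chr22:41832932-41833020 on the + strand, is shown because SREBF2 moved in opposite directions with the siRNAs, with the element in capitals.
SREBF2: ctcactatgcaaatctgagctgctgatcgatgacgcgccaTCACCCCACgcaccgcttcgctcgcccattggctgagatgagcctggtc
Stretches with CCAAT, or its reverse complement ATTGG, in capitals are shown for 4 genes described below, picked among those that hold the box. They are HMGCS1 at chr5:43313493-43313582 (- strand), MSMO1 at chr4:165327469-165327654 (+ strand), FDPS at chr1:155308675-155308834 (+ strand) and STARD4 at chr5:111512646-111512711 (- strand).
HMGCS1: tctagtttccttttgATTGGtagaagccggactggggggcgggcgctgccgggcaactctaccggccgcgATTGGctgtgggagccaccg
MSMO1: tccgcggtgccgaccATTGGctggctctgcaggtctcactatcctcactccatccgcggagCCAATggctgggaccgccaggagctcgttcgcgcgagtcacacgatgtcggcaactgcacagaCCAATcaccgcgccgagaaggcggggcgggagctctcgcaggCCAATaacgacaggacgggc
FDPS: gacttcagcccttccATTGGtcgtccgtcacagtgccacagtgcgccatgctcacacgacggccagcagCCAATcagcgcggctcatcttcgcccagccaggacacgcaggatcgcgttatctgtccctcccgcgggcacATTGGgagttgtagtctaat
STARD4: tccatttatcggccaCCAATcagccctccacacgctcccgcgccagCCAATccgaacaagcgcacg
HMGCS1 and STARD4 have 2 boxes each, FDPS 3 and MSMO1 4. No box lay in the promoter windows of IDI1, FADS1, ELOVL6, LPIN1 and ABCA1, which were also called lower over both siRNAs. The IDI1 window, chr10:1056655-1056954, lies outside the gene as annotated in GENCODE 29 (chr10:1039152-1049170, - strand). The sequence at that annotated start was therefore not searched. Of the genes called higher, INSIG1 had 1 and PMVK, SREBF1 and SCAP had none.

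An siRNA can also lower transcripts other than its target through a short match between its seed, positions 2 to 8 of the guide strand, and a 3′ UTR. The site of siCyclin K#1, GTGATAA, was in the longest annotated 3′ UTR (GENCODE 29) of 3 of the 35 genes, IDI1, MSMO1 and LPIN1, and in 11.37% of 11412 genes. The site of siCyclin K#2, TACAGGT, was in 4 of the 35, FDPS, MSMO1, STARD4 and ACACA, and in 14.26% of genes. The FDPS site, in transcript FDPS-210, has its ends at chr1:155310449 and chr1:155312256, so it spans an intron and exists only where that transcript is spliced. The siCyclin K#1 sites are shown with 10 bases on each side and the site in capitals, because all 3 genes were lower under siCyclin K#1 than under siCyclin K#2, as given below. They lie at chr10:1040839-1040845 and chr10:1039758-1039764 (IDI1, - strand), chr4:165342054-165342060 (MSMO1, + strand) and chr2:11825408-11825414 (LPIN1, + strand) of GRCh38.
IDI1, first site: ttagtaggctGTGATAAacatttccgg
IDI1, second site: aattagttatGTGATAActatgagttg
MSMO1: tggctactaaGTGATAAaaagaacatt
LPIN1: tcatttttagGTGATAAatttttcttt
The siCyclin K#2 site of STARD4 (chr5:111499557-111499563, - strand), a gene lower under siCyclin K#2 than under siCyclin K#1, read as follows.
STARD4: tagctgggaaTACAGGTgcacgccact
MSMO1 holds 1 site for each reagent, and IDI1 holds 2 for siCyclin K#1.

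The enzymes from acetyl-CoA to farnesyl diphosphate split in direction along the route. HMGCS1 and IDI1 fell with both siRNAs and PMVK rose with both, while MVK and MVD rose under siCyclin K#1 and ACAT2 fell under siCyclin K#2. Summed over the 7 genes, the level was 187 ± 9.77 FPKM (SD, n = 3) under scrambled siRNA, 135 ± 6.10 under siCyclin K#1 and 135 ± 7.24 under siCyclin K#2, and HMGCS1 had the largest share of it.

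HMGCS1 (chr5:43289395-43313512) makes HMG-CoA, the precursor of mevalonate. Its level was 104, 95.6 and 100.2 FPKM in the scrambled libraries, 49.5, 42.7 and 50.7 under siCyclin K#1 and 58.5, 53.4 and 57.8 under siCyclin K#2. Every siCyclin K library was below every scrambled one, with group means at 47.7% and 56.6% of scrambled. The log2 fold change was -1.07 ± 0.069 (SE) under siCyclin K#1 (limma adjusted p = 3.2e-06) and -0.82 ± 0.069 under siCyclin K#2 (limma adjusted p = 2.8e-05). IDI1 (chr10:1039152-1049170), which turns isopentenyl diphosphate into its isomer, read 37.0, 31.1 and 22.9 FPKM under scrambled siRNA, 8.58, 9.64 and 8.02 under siCyclin K#1 and 22.4, 17.6 and 13.8 under siCyclin K#2. The scrambled libraries were spread widely, and the highest siCyclin K#2 library was just below the lowest of them. The log2 fold change of IDI1 was -1.76 ± 0.21 under siCyclin K#1 (limma adjusted p = 0.00013) and -0.76 ± 0.21 under siCyclin K#2 (limma adjusted p = 0.02). The siCyclin K#2 call was lost without scrambled replicate 1 or 2 or siCyclin K#2 replicate 2 or 3 (log2 fold change -0.58 to -0.76, limma adjusted p 0.051 to 0.066). The call over both siRNAs (-1.26 ± 0.33, limma adjusted p = 0.017) was lost without scrambled replicate 1 or 2 (limma adjusted p = 0.078 and 0.061).

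PMVK (chr1:154924734-154936991), phosphomevalonate kinase, went the other way. It read 8.70, 7.56 and 10.4 FPKM under scrambled siRNA, 21.2, 20.9 and 24.7 under siCyclin K#1 and 18.5, 15.8 and 16.5 under siCyclin K#2. All 6 siCyclin K libraries were above the scrambled ones, and the log2 fold change was 1.33 ± 0.12 (limma adjusted p = 2.5e-05) and 0.93 ± 0.12 (limma adjusted p = 0.00034). The neighbouring kinase and decarboxylase, MVK and MVD, rose under siCyclin K#1 to 149% and 152% of scrambled (limma adjusted p = 0.00084 and 0.0002), and were at 99.8% and 113% under siCyclin K#2 (limma adjusted p = 0.99 and 0.099). ACAT2, a thiolase that makes acetoacetyl-CoA, was at 108% under siCyclin K#1 (limma adjusted p = 0.075) and fell to 86.7% under siCyclin K#2 (limma adjusted p = 0.0062). Its exons overlap those of TCP1 on the other strand, whose mean level was 34.8 FPKM, and MVK overlaps MMAB in the same way at 3.03 FPKM. The strand setting of the libraries is not given in the sources used here, so reads of such pairs cannot be told apart.

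FDPS (chr1:155308748-155320666), farnesyl diphosphate synthase, was 1 of 2 genes called in opposite directions by the siRNAs. Its level was 21.9, 21.4 and 20.97 FPKM under scrambled siRNA, 25.4, 24.6 and 26.0 under siCyclin K#1 and 18.8, 19.3 and 19.2 under siCyclin K#2, so the 3 groups did not overlap. It rose by 0.24 ± 0.035 on the log2 scale under siCyclin K#1 (limma adjusted p = 0.00053) and changed by -0.17 ± 0.035 under siCyclin K#2 (limma adjusted p = 0.0059). The gene has 8 annotated pseudogenes in the table, the highest at a mean of 0.469 FPKM.

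**Figure D2:**
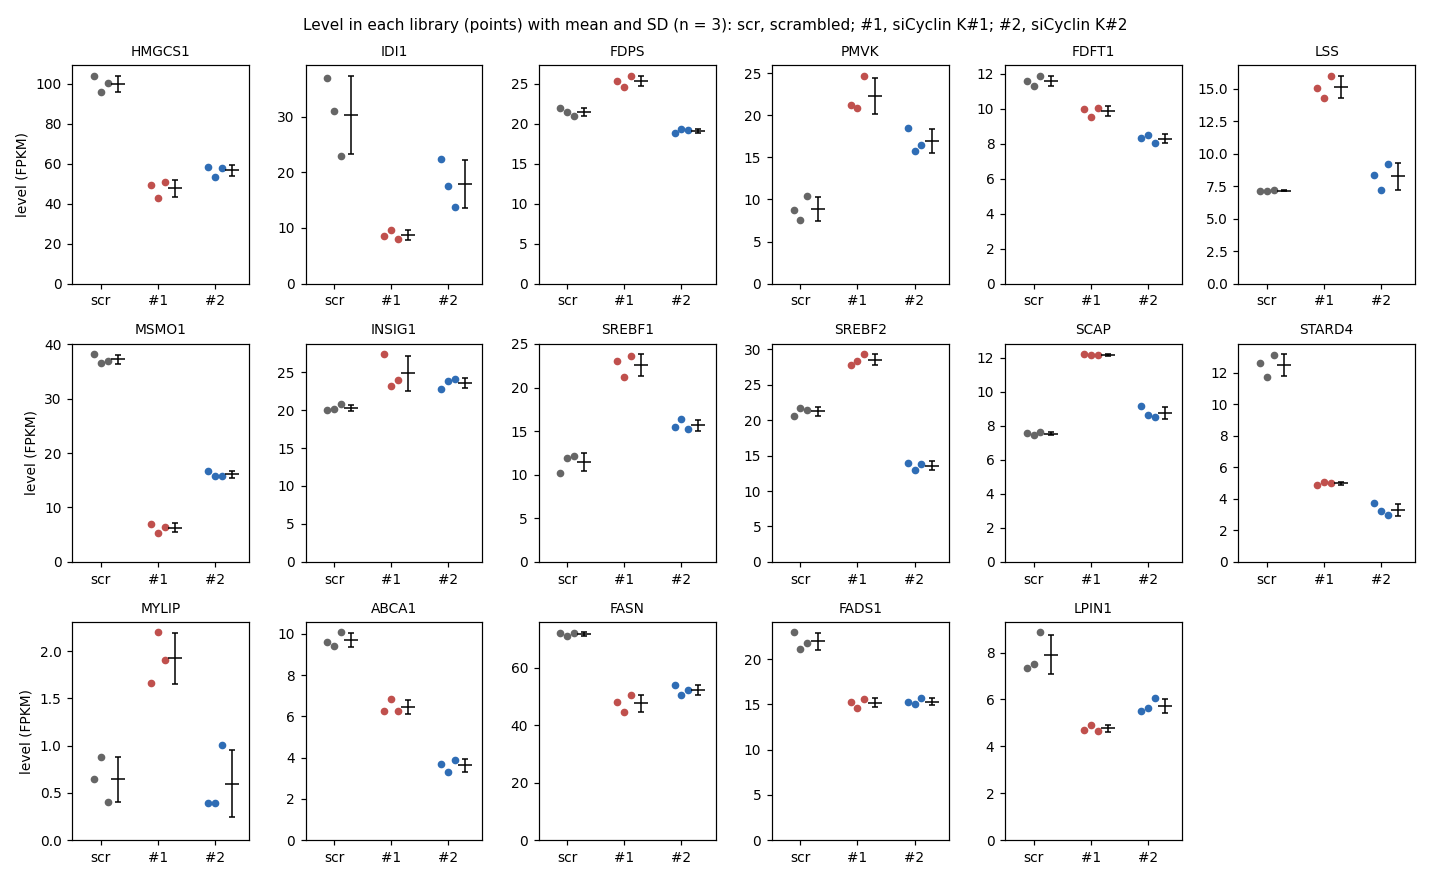
Level in FPKM (y axis, from 0) of the 17 genes described library by library, in the scrambled (scr), siCyclin K#1 (#1) and siCyclin K#2 (#2) groups, with points for libraries and the mean with SD beside them (n = 3). MSMO1, STARD4 and HMGCS1 fell with both siRNAs, SREBF2 lay above scrambled with #1 and below it with #2, and the 3 scrambled libraries of IDI1 are spread from 22.9 to 37.0 FPKM.

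From squalene to cholesterol, the 11 genes gave 2 higher and 2 lower under siCyclin K#1 (beside 26.8% of all genes called higher and 18.1% lower) and 0 higher and 6 lower under siCyclin K#2 (beside 19.8% and 15.2%). Their summed level was 172 ± 7.94 FPKM under scrambled siRNA, 158 ± 11.5 under siCyclin K#1 and 132 ± 6.93 under siCyclin K#2. MSMO1 and FDFT1 fell with both reagents.

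MSMO1 (chr4:165327623-165343160), the oxidase that removes methyl groups from the sterol ring, had the largest fold change of the 35 under siCyclin K#1 and over both siRNAs. It read 38.2, 36.5 and 37.0 FPKM under scrambled siRNA, 6.997, 5.37 and 6.37 under siCyclin K#1 and 16.8, 15.7 and 15.8 under siCyclin K#2. The 3 groups were far apart, with means at 16.8% of scrambled under siCyclin K#1 and 43.2% under siCyclin K#2. The log2 fold change was -2.56 ± 0.085 (limma adjusted p = 8.3e-08) and -1.21 ± 0.085 (limma adjusted p = 1e-05). FDFT1, squalene synthase, which commits the route to sterols, read 11.6, 11.3 and 11.9 FPKM under scrambled siRNA, 9.97, 9.53 and 10.1 under siCyclin K#1 and 8.35, 8.50 and 8.02 under siCyclin K#2. The groups were ordered without overlap, and the log2 fold change was -0.23 ± 0.044 (limma adjusted p = 0.0025) and -0.48 ± 0.044 (limma adjusted p = 4.9e-05). Its call over both siRNAs (limma adjusted p = 0.014) was lost without scrambled replicate 1 or 3 (limma adjusted p = 0.053 and 0.063).

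LSS (chr21:46188141-46228824), which closes squalene epoxide into lanosterol, read 7.10, 7.16 and 7.24 FPKM under scrambled siRNA, 15.1, 14.3 and 16.0 under siCyclin K#1 and 8.33, 7.20 and 9.22 under siCyclin K#2. It rose under siCyclin K#1, to 211% of scrambled, while 1 siCyclin K#2 library lay within the scrambled range. The log2 fold change was 1.07 ± 0.085 under siCyclin K#1 (limma adjusted p = 1.2e-05) and 0.19 ± 0.085 under siCyclin K#2 (limma adjusted p = 0.12). Without siCyclin K#2 replicate 2 the siCyclin K#2 difference passed (0.29, limma adjusted p = 0.013). DHCR7, the reductase of the last step, rose under siCyclin K#1 to 134% (limma adjusted p = 0.02), a call lost without siCyclin K#1 replicate 1 or 3 (limma adjusted p = 0.058 and 0.063) and under median-ratio rescaling (0.31, limma adjusted p = 0.07). DHCR7 was at 83.7% under siCyclin K#2 (log2 fold change -0.25, limma adjusted p = 0.16), and without scrambled replicate 1 this difference passed (-0.39, limma adjusted p = 0.016).

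CYP51A1, NSDHL, HSD17B7 and TM7SF2 were called lower under siCyclin K#2 and not called under siCyclin K#1. They act on the sterol ring after lanosterol, CYP51A1 as demethylase, NSDHL and HSD17B7 as dehydrogenases and TM7SF2 as reductase. Their levels were 87.0%, 78.8%, 73.3% and 74.8% of scrambled (limma adjusted p = 0.022, 0.00022, 0.0023 and 0.0044), and 111%, 98.3%, 94.1% and 87.8% under siCyclin K#1. The direct test between the siRNAs did not pass for TM7SF2 (limma adjusted p = 0.07). Under siCyclin K#1, NSDHL and TM7SF2 were also called lower with median-ratio rescaling (-0.14 and -0.30, limma adjusted p = 0.025 and 0.014), TM7SF2 and HSD17B7 with quantile normalization (-0.28 and -0.24, limma adjusted p = 0.022 and 0.046), and TM7SF2 without scrambled replicate 1 (-0.27, limma adjusted p = 0.016). With all libraries CYP51A1 narrowly missed a higher call under siCyclin K#1 (0.15 ± 0.055, limma adjusted p = 0.051). It was called higher there in the fit to genes with a mean of 1 FPKM or more (0.15, limma adjusted p = 0.036). It was also called higher there without scrambled replicate 1 or siCyclin K#1 replicate 2 (0.18 and 0.20, limma adjusted p = 0.049 and 0.02). The CYP51A1 call under siCyclin K#2 was lost in 4 of the 9 fits that left out 1 library, those without scrambled replicate 1 or 3 or siCyclin K#2 replicate 1 or 3 (log2 fold change -0.17 to -0.20, limma adjusted p 0.053 to 0.074). HSD17B7 has 2 pseudogenes, the higher at a mean of 2.98 FPKM, beside the level of the gene itself at 4.61 ± 0.360 FPKM under scrambled siRNA.

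SQLE, EBP and SC5D were called with neither siRNA. SQLE, squalene epoxidase, had means of 20.7 ± 3.64, 26.7 ± 6.19 and 20.3 ± 3.16 FPKM in the scrambled, siCyclin K#1 and siCyclin K#2 groups, and EBP, a sterol isomerase, had 13.03 ± 2.03, 10.7 ± 2.15 and 13.8 ± 1.33 FPKM. Without siCyclin K#1 replicate 3 EBP was called lower under siCyclin K#1 (-0.44, limma adjusted p = 0.026, against -0.29 ± 0.15 with it) and lower there than under siCyclin K#2 (-0.53, limma adjusted p = 0.02, against -0.37 ± 0.15). SC5D, a sterol desaturase, read 4.04, 4.74 and 4.08 FPKM under scrambled siRNA, 4.29, 4.22 and 4.35 under siCyclin K#1 and 4.77, 1.996 and 1.67 under siCyclin K#2. Replicate 1 of siCyclin K#2 lay at the scrambled level and the other two libraries well below it. Without that library the siCyclin K#2 log2 fold change was -1.18 (limma adjusted p = 0.00012), against -0.74 ± 0.32 with it (limma adjusted p = 0.11).

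Of the 5 genes of SREBP and its regulators, 4 were higher and 0 lower under siCyclin K#1 (beside 26.8% of all genes called higher and 18.1% lower), and 3 were higher and 1 lower under siCyclin K#2 (beside 19.8% and 15.2%). Their summed level was 65.5 ± 2.01 FPKM under scrambled siRNA, 94.8 ± 2.88 under siCyclin K#1 and 68.9 ± 2.37 under siCyclin K#2. SREBF1 (chr17:17810399-17837002), whose product mainly serves fatty acid genes, read 10.2, 11.96 and 12.2 FPKM under scrambled siRNA, 23.0, 21.2 and 23.6 under siCyclin K#1 and 15.4, 16.4 and 15.2 under siCyclin K#2. No groups overlapped, and the log2 fold change was 0.98 ± 0.074 (limma adjusted p = 8.4e-06) and 0.45 ± 0.074 (limma adjusted p = 0.0014). Its exons overlap RAI1 on the other strand, at a mean of 8.10 FPKM.

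SREBF2 (chr22:41833079-41907308), whose product mainly serves sterol genes and whose promoter element is printed above, read 20.6, 21.7 and 21.4 FPKM under scrambled siRNA, 27.8, 28.4 and 29.4 under siCyclin K#1 and 14.0, 12.9 and 13.8 under siCyclin K#2. All siCyclin K#1 libraries were above the scrambled ones and all siCyclin K#2 libraries below, at 134% and 64.0% of the scrambled mean. The log2 fold change was 0.42 ± 0.044 (limma adjusted p = 6.3e-05) and -0.64 ± 0.044 (limma adjusted p = 8.9e-06). Taken over both siRNAs the difference was -0.11 ± 0.30 (limma adjusted p = 0.83), a mean of opposite changes.

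SCAP (chr3:47413694-47477126), the escort of SREBPs, read 7.57, 7.45 and 7.63 FPKM under scrambled siRNA, 12.2, 12.1 and 12.1 under siCyclin K#1 and 9.19, 8.61 and 8.54 under siCyclin K#2. Its libraries were tight within each group and the groups did not overlap, with log2 fold changes of 0.68 ± 0.042 (limma adjusted p = 2.6e-06) and 0.21 ± 0.042 (limma adjusted p = 0.004). Over both siRNAs its call (limma adjusted p = 0.039) was lost without any 1 of the scrambled or siCyclin K#1 libraries (limma adjusted p 0.065 to 0.11) and with median-ratio rescaling or quantile normalization (limma adjusted p = 0.052 and 0.088). INSIG1 (chr7:155297776-155310235), which retains SCAP and is itself an SREBP target, read 19.98, 20.1 and 20.8 FPKM under scrambled siRNA, 27.4, 23.2 and 24.0 under siCyclin K#1 and 22.8, 23.8 and 24.1 under siCyclin K#2. All 6 siCyclin K libraries were above the scrambled ones by a small margin, with log2 fold changes of 0.29 ± 0.061 (limma adjusted p = 0.0044) and 0.22 ± 0.061 (limma adjusted p = 0.024). Both INSIG1 calls were lost under median-ratio rescaling (0.17 with each, limma adjusted p = 0.053 and 0.066). The siCyclin K#2 call was also lost without scrambled replicate 1 or 2 or siCyclin K#2 replicate 2 or 3 (limma adjusted p 0.066 to 0.072), and the call over both siRNAs (0.25 ± 0.066, limma adjusted p = 0.018) without scrambled replicate 1 or 2 (limma adjusted p = 0.072 and 0.069). INSIG2, the other INSIG protein, was called with neither siRNA, with means of 5.03 ± 1.02, 6.72 ± 0.0692 and 7.27 ± 2.40 FPKM. Without siCyclin K#2 replicate 3 its siCyclin K#2 log2 fold change was 0.79 (limma adjusted p = 0.006), against 0.48 ± 0.25 with it, and its siCyclin K#1 one, 0.43 in both fits, passed as well (limma adjusted p = 0.035).

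**Figure D3:**
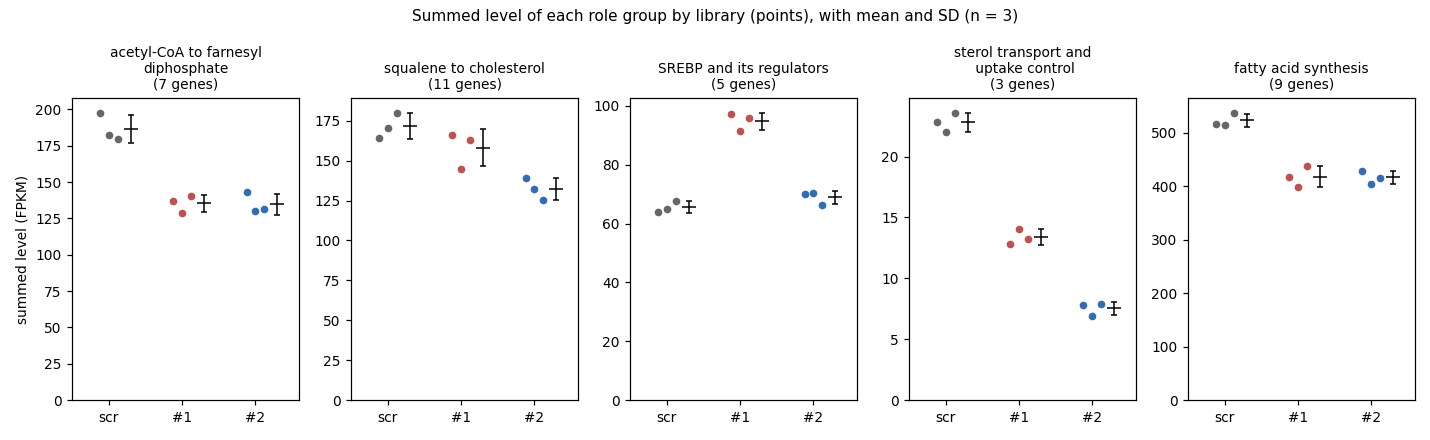
Summed level in FPKM (y axis, from 0) of the genes of each role group in every library, for scrambled (scr), siCyclin K#1 (#1) and siCyclin K#2 (#2), with the mean and SD beside the points (n = 3). The fatty acid genes sum to a mean of 523 FPKM under scrambled siRNA and about 417 and 416 FPKM with the siRNAs, while the SREBP group is above scrambled with #1 and transport genes are lowest with #2.

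Of the 3 genes of sterol transport and uptake control, STARD4 and ABCA1 fell with both siRNAs, more under siCyclin K#2. STARD4 (chr5:111496033-111512590) carries sterol between membranes. It read 12.6, 11.7 and 13.1 FPKM under scrambled siRNA, 4.88, 5.05 and 5.03 under siCyclin K#1 and 3.73, 3.24 and 2.97 under siCyclin K#2. The 3 groups did not overlap, at 39.99% and 26.6% of scrambled, with log2 fold changes of -1.3 ± 0.083 (limma adjusted p = 3.1e-06) and -1.89 ± 0.083 (limma adjusted p = 8e-07). ABCA1 (chr9:104781002-104928237), which exports cholesterol from the cell, read 9.62, 9.43 and 10.1 FPKM under scrambled siRNA, 6.28, 6.85 and 6.26 under siCyclin K#1 and 3.70, 3.30 and 3.90 under siCyclin K#2. Again each group stood apart, and the log2 fold change was -0.58 ± 0.072 (limma adjusted p = 0.00018) and -1.40 ± 0.072 (limma adjusted p = 1.8e-06). MYLIP (chr6:16129125-16148248), a ubiquitin ligase that marks lipoprotein receptors for breakdown, was the lowest of the 35 genes under scrambled siRNA. It read 0.644, 0.880 and 0.407 FPKM under scrambled siRNA, 1.66, 2.199 and 1.91 under siCyclin K#1 and 0.390, 0.397 and 1.004 under siCyclin K#2. The siCyclin K#1 libraries were all above the others, and the siCyclin K#2 libraries overlapped the scrambled ones. MYLIP rose under siCyclin K#1 by 1.49 ± 0.35 (limma adjusted p = 0.0075) and differed by -0.15 ± 0.35 under siCyclin K#2 (limma adjusted p = 0.78). Its lowest library held about 38 reads, so its level is less precise than that of the other genes.

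Fatty acid synthesis held the most abundant members, ACLY and SCD, with scrambled means of 197 ± 7.27 and 178 ± 6.43 FPKM, followed over all 35 genes by HMGCS1 and FASN. Of the 9 genes, 2 were higher and 5 lower under siCyclin K#1 (beside 26.8% of all genes called higher and 18.1% lower), and 0 were higher and 6 lower under siCyclin K#2 (beside 19.8% and 15.2%). FASN (chr17:82078333-82098332), the synthase that builds palmitate, read 71.9, 71.0 and 72.1 FPKM under scrambled siRNA, 47.9, 44.5 and 50.4 under siCyclin K#1 and 54.0, 50.4 and 52.3 under siCyclin K#2. Both siCyclin K groups were below scrambled and overlapped each other, with log2 fold changes of -0.59 ± 0.047 (limma adjusted p = 1.2e-05) and -0.46 ± 0.047 (limma adjusted p = 9.5e-05). FADS1 (chr11:61799625-61829318), a desaturase of polyunsaturated fatty acids, read 23.0, 21.1 and 21.8 FPKM under scrambled siRNA, 15.3, 14.6 and 15.6 under siCyclin K#1 and 15.2, 15.01 and 15.7 under siCyclin K#2. Its siCyclin K groups overlapped each other below the scrambled level, at 69.2% and 69.7% of scrambled (limma adjusted p = 1.6e-05 and 3.2e-05). FADS1 and FADS2 overlap on opposite strands, with mean levels of 17.5 and 11.97 FPKM.

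LPIN1 (chr2:11677595-11827409), a phosphatase that makes diacylglycerol, read 7.35, 7.52 and 8.87 FPKM under scrambled siRNA, 4.69, 4.93 and 4.67 under siCyclin K#1 and 5.50, 5.62 and 6.08 under siCyclin K#2. No library overlapped between the groups, and the log2 fold change was -0.72 ± 0.079 (limma adjusted p = 8.7e-05) and -0.45 ± 0.079 (limma adjusted p = 0.002). ELOVL6, which lengthens palmitate, fell to 72.1% and 76.0% of scrambled (limma adjusted p = 1.4e-05 and 6.7e-05). ACLY, which makes cytosolic acetyl-CoA from citrate, was the one gene called lower under siCyclin K#1 only, at 71.8% (limma adjusted p = 5.3e-06) beside 96.6% under siCyclin K#2 (limma adjusted p = 0.31). SCD and FADS2, which introduce double bonds, were called lower under siCyclin K#2 and not called under siCyclin K#1, at 63.0% and 83.0% (limma adjusted p = 4.4e-05 and 0.0047) beside 90.7% and 94.6% under siCyclin K#1 (limma adjusted p = 0.087 and 0.27). With median-ratio rescaling both were called lower under siCyclin K#1 as well (-0.26 and -0.20, limma adjusted p = 0.0088 and 0.02), as was SCD without siCyclin K#1 replicate 3 (-0.20, limma adjusted p = 0.025). The acetyl-CoA carboxylase ACACA and the acetate-activating enzyme ACSS2 rose under siCyclin K#1, to 142% and 126% (limma adjusted p = 1.7e-05 and 0.0026), a change in ACSS2 that did not pass after quantile normalization (log2 fold change 0.17, limma adjusted p = 0.07). Under siCyclin K#2 they were at 104% and 93.5% (limma adjusted p = 0.31 and 0.28).

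A test between siCyclin K#1 and siCyclin K#2 themselves asks which of these differences lie between the reagents. It called 21 of the 35 genes higher under siCyclin K#1 (60%, against 17.1% of all genes) and 5 lower (14.3%, against 12.3%). The median difference was 0.35 over the 35 genes and 0.08 over all genes. In the fit to genes with a mean of 1 FPKM or more, 22 of the 35 were higher and 6 lower, against 26.1% and 22.7% of those genes. MYLIP, which passed that filter only through siCyclin K#1, is among the 22. The largest differences above 0 were those of MYLIP (1.64 ± 0.35, SE, limma adjusted p = 0.0074), SREBF2 (1.06 ± 0.044, limma adjusted p = 1.1e-06) and LSS (0.87 ± 0.085, limma adjusted p = 0.0001). The 5 genes lower under siCyclin K#1 were MSMO1 (-1.36 ± 0.085, limma adjusted p = 8.3e-06), IDI1 (-1.0 ± 0.21, limma adjusted p = 0.0062), ACLY (-0.43 ± 0.033, limma adjusted p = 2.9e-05), LPIN1 (-0.26 ± 0.079, limma adjusted p = 0.036) and HMGCS1 (-0.25 ± 0.069, limma adjusted p = 0.024). LPIN1 lost this call without any 1 of the 6 siCyclin K libraries (limma adjusted p 0.051 to 0.11), and HMGCS1 without siCyclin K#2 replicate 1 or 3 (limma adjusted p = 0.076 and 0.074). For FADS1, ELOVL6, INSIG1 and INSIG2 the reagents differed by -0.01 ± 0.044, -0.07 ± 0.038, 0.07 ± 0.061 and -0.05 ± 0.25 on the log2 scale and the test did not pass, which does not show that the reagents act alike on them. The ELOVL6 difference passed with median-ratio rescaling (-0.145, limma adjusted p = 0.023).

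The 3 genes with a siCyclin K#1 site in their 3′ UTR, printed above, were all among the 5 genes lower under siCyclin K#1 than under siCyclin K#2, and none of the 21 higher genes or the 9 genes not called had one. Over all genes with a 3′ UTR, the site was in 441 of the 2100 (21%) called lower under siCyclin K#1, in 205 of the 2846 (7.2%) called higher and in 11.37% of the 11412 tested. For the siCyclin K#2 site, 3 of the 21 higher genes and 1 of the 5 lower ones had it, and over all genes it was in 14.38% of those lower under siCyclin K#1 and 14.34% of those higher. These are counts of letters in annotated transcripts, and the part of such sites in the differences was not tested. IDI1, MSMO1 and LPIN1 also fell under siCyclin K#2, for which MSMO1 holds 1 site and IDI1 and LPIN1 hold none.

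**Figure D4:**
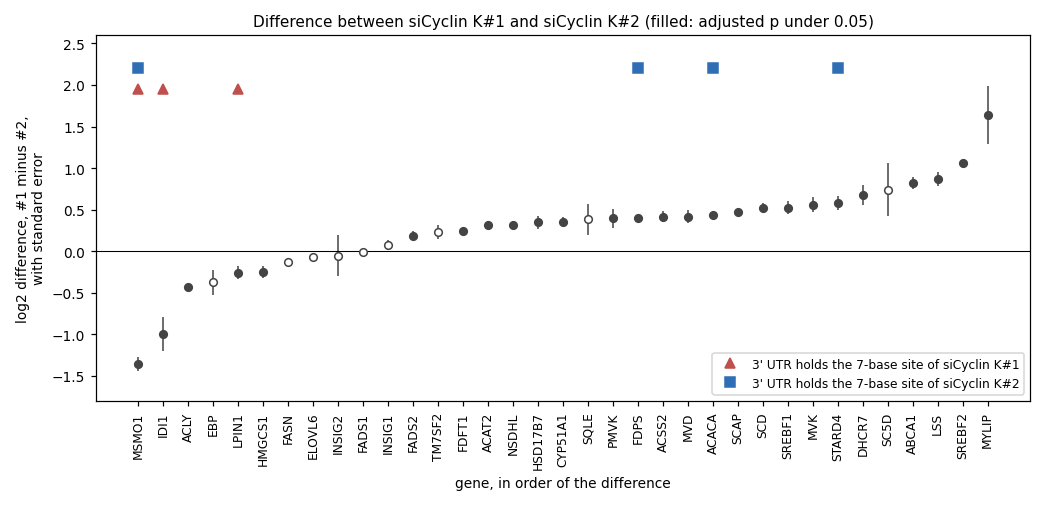
Log2 difference between siCyclin K#1 and siCyclin K#2 (y axis, #1 minus #2, with standard error) for the 35 genes in order of size (x axis), with filled points at an adjusted p under 0.05. Triangles mark the 3 genes whose 3′ UTR holds the siCyclin K#1 site, which lie at the left with MSMO1 at -1.36 ± 0.085, and squares mark the 4 with the siCyclin K#2 site, while MYLIP is highest at 1.64 ± 0.35.

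Gene length, which is often considered for genes that depend on Cyclin K, showed almost no order with the response of the 35 genes. Their annotated spans run from 4.5 kb (TM7SF2) to 321.8 kb (ACACA). Across the 35 genes, which share the same libraries, Spearman's rho between span and log2 fold change was 0.05 under siCyclin K#1 and -0.02 under siCyclin K#2, given as a description.

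Among other genes of these pathways, those of sterol sensing and SREBP processing gave 3 higher and 1 lower of 7 tested over both siRNAs, beside 17.0% of all genes called higher and 11.5% lower. ERLIN2 and ERLIN1 rose by 1.20 ± 0.14 and 0.71 ± 0.06 on the log2 scale (limma adjusted p = 0.00016 and 2.8e-05), and RNF139, a ubiquitin ligase, by 0.43 ± 0.11 (limma adjusted p = 0.012). MBTPS2, which makes the final cut in SREBPs, changed by -0.45 ± 0.057 (limma adjusted p = 0.00032), while MBTPS1, which makes the cut before it, was at 232% of scrambled under siCyclin K#1 (limma adjusted p = 1.1e-05) and 112% under siCyclin K#2 (limma adjusted p = 0.24). The row of ERLIN1 is shared with CHUK and that of MBTPS2 with YY2.

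The LXR list gave 2 higher and 0 lower of 4 tested, beside the same 17.0% and 11.5% of all genes. LPCAT3, a phospholipid acyltransferase under LXR control, rose from 6.97 ± 0.317 FPKM to 27.0 ± 0.673 under siCyclin K#1 and 13.5 ± 0.613 under siCyclin K#2 (limma adjusted p = 2.7e-08 and 2e-06), a direction opposite to that of ABCA1, another LXR target. RXRB, a partner receptor of LXR, rose by 1.17 ± 0.084 over both siRNAs (limma adjusted p = 1.1e-05). ABCG1 was below the filter on low values.

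Among other sterol genes, 1 of 7 tested was higher and 2 lower, of which the first is near the 17.0% of all genes called higher, with 11.5% called lower. ACAT1, the mitochondrial thiolase, rose by 1.17 ± 0.11 (limma adjusted p = 4e-05). TMEM97, a sterol-regulated membrane protein, changed by -0.80 ± 0.22 (limma adjusted p = 0.025), and CYP27A1, a sterol hydroxylase near the detection limit at 0.175 FPKM under scrambled siRNA, by -1.03 ± 0.30 (limma adjusted p = 0.027). TMEM97 and CYP27A1 were called lower under siCyclin K#1 (limma adjusted p = 0.023 and 0.0052) and not called under siCyclin K#2 (limma adjusted p = 0.075 and 0.074). The siCyclin K#1 libraries of TMEM97 were spread widely, at 39.4, 39.3 and 17.8 FPKM.

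The 17 other fatty acid genes gave 4 higher and 2 lower, near the all-gene shares of 17.0% and 11.5%. The higher ones were ME1, a source of NADPH for synthesis (1.10 ± 0.12, limma adjusted p = 0.00014), HACD3, ACSL1 and ACACB. Of the lower ones, ACSL5, an acyl-CoA synthetase, had the larger change (-1.70 ± 0.33, limma adjusted p = 0.0039). The 9 genes of lipid storage and use gave 1 higher and 1 lower, also near those shares. PLIN2, a lipid droplet coat protein, rose by 0.63 ± 0.17 (limma adjusted p = 0.021) and PNPLA2, a triglyceride lipase, changed by -0.97 ± 0.20 (limma adjusted p = 0.0051).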

How the data were processed

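RNA-seq was carried out on total RNA of A549 cells 48 h after transfection, in 3 groups of 3 libraries, on an Illumina instrument with paired reads. The deposited tables hold 56252 features with 1 FPKM value per library, made by the authors and normalized to length and mapped fragments, and the submitters' processing notes name StringTie 1.3.3b. The aligner, the annotation release and the strand setting are not given in the sources used here. Coordinates of 27440 of 27835 rows with an Ensembl gene were the same as in GENCODE 29 (GRCh38). The tables hold no columns of the authors' comparisons.

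Rows of 1 reference gene were summed (47 genes had more than 1 row), and 25125 features that name no reference gene were not used. The filter on low values asked for 0.1 FPKM or more in 3 libraries or more, which left 21048 genes. Values were tested as log2(FPKM + 0.1) with limma 3.58.1 (lmFit, eBayes with trend) in R 4.3.3, once with 2 groups for both siRNAs against scrambled, and once with 3 groups for each siRNA and for the direct difference, with Benjamini-Hochberg adjustment over all genes. A fold change on this scale understates the change of low genes. Single genes were also tested by an exact two-sided permutation test (scipy 1.17.1). The limma script was tested on simulated data. In 84.01% of nonzero values the FPKM was a whole number of reads within 0.02, from which depth was worked out, and limma-voom was run on 14778 genes whose reads could be recovered.

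The 35 genes, the 5 lists of other pathway genes and the tests were chosen with earlier results of these data known. Genes printed library by library were, in each role group, the 3 with the largest absolute change over both siRNAs among those called, every gene called in opposite directions, and the 5 with the largest difference between the siRNAs. The other genes are given by group means, and at most 5 per pathway list are named, except that SC5D by library and ACSL4, DGAT2 and ELOVL5 were added after their values were seen. Alternatives covered the pseudocount, the filter, rescaling, the trend, the replicate number, joined rows, recovered reads, thresholds and leaving out each library.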

Additional observations from a re-analysis of the deposited data

Results flagged for a closer look

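The effects of siCyclin K#1 and siCyclin K#2 differed in the direct limma test for 26 of the 35 genes. Of these, 21 were higher and 5 lower under siCyclin K#1, beside 17.1% and 12.3% of all genes. Each value below is the log2 effect of siCyclin K#1 minus that of siCyclin K#2. Those below 0 were MSMO1 (-1.36), IDI1 (-1.0), ACLY (-0.43), LPIN1 (-0.26) and HMGCS1 (-0.25). On the mevalonate route, the differences above 0 were ACAT2 (0.31), PMVK (0.39), FDPS (0.405), MVD (0.42) and MVK (0.56). Among the sterol enzymes they were FDFT1 (0.25), NSDHL (0.32), HSD17B7 (0.35), CYP51A1 (0.35), DHCR7 (0.67) and LSS (0.87). Among regulators and transporters they were SCAP (0.47), SREBF1 (0.525), STARD4 (0.58), ABCA1 (0.815), SREBF2 (1.06) and MYLIP (1.64). Among the fatty acid genes they were FADS2 (0.19), ACSS2 (0.42), ACACA (0.44) and SCD (0.52). The limma adjusted p ranged from 1.1e-06 for SREBF2 to 0.036 for PMVK and LPIN1. PMVK lost this call without scrambled replicate 1, without any 1 of the siCyclin K#1 libraries and without siCyclin K#2 replicate 2 or 3 (limma adjusted p 0.053 to 0.11), and with median-ratio rescaling (0.32, limma adjusted p = 0.086), and FADS2 without replicate 1 or 3 of siCyclin K#1 or replicate 2 or 3 of siCyclin K#2 (0.073 to 0.099) and with median-ratio rescaling (0.12, limma adjusted p = 0.18). The causes of the differences were not tested.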

How the results depend on the processing

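No call of the 35 genes turned its direction under any alternative run. Over both siRNAs, the number higher went from 4 to 2 with median-ratio rescaling, without the trend, with limma-voom on recovered reads, at an adjusted p under 0.01 and at a fold change over 1.5, and to 0 at a fold change over 3. The number lower went from 10 to 6 with limma-voom, 5 at a fold change over 1.5 and 2 at a fold change over 3. Under siCyclin K#1, 6 were higher and 6 lower at a fold change over 1.5, and 0 and 2 at a fold change over 3, while limma-voom called 7 lower. Under siCyclin K#2, limma-voom called 2 higher and 10 lower, a fold change over 1.5 left 1 and 7, and one over 3 left 0 and 1. Between the siRNAs, limma-voom called 13 higher and 3 lower, 3 were lower without the trend and at an adjusted p under 0.01, 5 were higher and 2 lower at a fold change over 1.5, and 1 and 0 at one over 3. Limma-voom held only 22 of the 35 genes, which by itself lowers its counts. Of its own genes, limma-voom called 12.4% higher and 10.4% lower over both siRNAs, and 23.1% and 15.3% under siCyclin K#1. Its shares were 15.2% and 13.9% under siCyclin K#2, and 15.2% and 9.2% between the siRNAs. Without the trend, 16.2% of all genes were higher over both siRNAs, and 11.0% were lower between the siRNAs. All-gene shares by direction were not counted at an adjusted p under 0.01 or at either fold change.

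Leaving out 1 library at a time gave 2 to 6 higher and 9 to 11 lower over both siRNAs, 12 to 14 and 11 to 13 under siCyclin K#1, 3 to 4 and 17 to 19 under siCyclin K#2, and 19 to 22 and 3 to 6 between the siRNAs. The 2 higher came without scrambled replicate 1 or 2, the 6 without siCyclin K#2 replicate 3, and the 3 lower between the siRNAs without siCyclin K#2 replicate 1 or 3. The shares of all genes called in these fits were not counted.

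Median-ratio rescaling changed the all-gene calls under siCyclin K#1 from 5635 higher and 3800 lower to 4663 and 4660, and quantile normalization to 4640 and 4587. Libraries of the same number showed no shared deviation from their group means (mean r = -0.00585 over 9 pairs and 11200 genes, range -0.0711 to 0.0379). This cannot show whether libraries of the same number were prepared together, which the labels do not say. A fit with the replicate block gave 3 higher and 10 lower over both siRNAs, 13 and 11 under siCyclin K#1, 4 and 19 under siCyclin K#2, and 21 and 6 between the siRNAs. Of all genes it called 13.6% higher and 9.1% lower over both siRNAs, and 25.5% and 17.5% under siCyclin K#1. The shares were 18.6% and 14.4% under siCyclin K#2, and 15.3% and 11.7% between the siRNAs. The SCAP call over both siRNAs was lost with the replicate block, without the trend and without the filter (limma adjusted p = 0.086, 0.063 and 0.055). With 3 libraries per group, SQLE and EBP varied widely within groups and passed no test with all libraries in, and MYLIP is limited by its depth. Limma-voom over its 14778 genes called 3408 higher and 2262 lower under siCyclin K#1, and 2243 and 2060 under siCyclin K#2.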

Other observations

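Some other genes of fatty acid and lipid metabolism, chosen here after their values were seen, also moved in opposite directions with the siRNAs, as SREBF2 and FDPS did. ACSL4, which loads arachidonic acid onto CoA, had means of 19.0 ± 0.644 FPKM (SD, n = 3) under scrambled siRNA, 4.85 ± 0.229 under siCyclin K#1 and 23.1 ± 0.719 under siCyclin K#2. Its log2 fold change was -1.95 ± 0.049 (SE, limma adjusted p = 2.7e-08) and 0.28 ± 0.049 (limma adjusted p = 0.002), a difference between the siRNAs of -2.23 ± 0.049 (limma adjusted p = 7.9e-08). DGAT2, which makes triglyceride, was at 182% of scrambled under siCyclin K#1 (limma adjusted p = 0.0027) and 58.1% under siCyclin K#2 (limma adjusted p = 0.0075). ELOVL5, an elongase of polyunsaturated fatty acids, was at 121% (limma adjusted p = 0.00049) and 91.2% (limma adjusted p = 0.028).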
